A study of Mus musculus with 8 samples.

Results

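Genes that respond to low oxygen and genes of glycolysis were followed in the lower molar tooth germs of mouse embryos after injection of an antibody to Shh, of the Hedgehog inhibitor cyclopamine, or of a control. The set held 35 genes, chosen by name, and every probe set that the platform annotation gave to exactly 1 of them was taken. Such probe sets existed for 31 of the 35 genes, with 66 probe sets in all. Gapdh was represented by 3 control probe sets of the array, which brought the total to 69 of the 45101 probe sets in the table. No probe set was named with Gpi1 or Eno1, and the probe sets of Bnip3l also carried the name of a pseudogene, so these 3 genes were not analysed here. Of the 31 genes, 13 had 1 probe set and 18 had several, and the probe set with the highest mean stood for the gene. All 31 lay above the filter on weak signals, a mean log2 value of 6.12 or a signal of 60.3, which kept 13008 of 18193 genes.

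Pregnant ICR mice, an outbred stock, were injected intraperitoneally at embryonic day 14, and the tooth germs of their embryos were collected 24 hours later. Groups received the antibody 5E1, an IgG1 that binds Shh, at 10 mg/kg, or 40-1a, an IgG1 against β-galactosidase, at 10 mg/kg. The other groups received cyclopamine, a steroidal alkaloid that blocks the Hedgehog transducer Smo, at 10 mg/kg, or 1 ml of PBS, and the vehicle of cyclopamine is not given in the sources used here. Each of the 4 groups had 2 arrays, called biological replicates by the labels, which do not say whether the litters were separate, so the p-values given here reflect variation among these samples, which may be technical.

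Cells take up glucose through facilitative transporters, trap it by phosphorylation and split it to pyruvate, which is reduced to lactate when respiration is limited or when growth favours glycolysis. The transcription factor HIF-1 couples this chain to oxygen: prolyl hydroxylases mark its alpha subunit for degradation when oxygen is present, and without oxygen the factor accumulates and raises transcription of glycolytic, angiogenic and stress genes. At the bell stage that these molars approach, the enamel organ has no blood vessels of its own, and the vessels run in the surrounding mesenchyme.

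The array values were MAS5 signals, an intensity on a linear scale, and every array had been scaled to a 2% trimmed mean of 500. The Hedgehog receptor gene Ptch1, which is itself a pathway target, had signals of 2122 and 1552 after 5E1 against 11322 and 7180 after 40-1a, and of 9683 and 5793 after cyclopamine against 9611 and 8474 after PBS. Gli1, another target, had signals of 239.7 and 348 after 5E1 against 1196 and 1586 after 40-1a, and of 2157 and 1193 after cyclopamine against 1070 and 2143 after PBS. Both targets thus lay far lower after 5E1, without overlap, whereas the cyclopamine and PBS arrays overlapped, with log2 differences of -0.27 for Ptch1 and 0.08 for Gli1. All 13 dental epithelium markers and all 15 dental mesenchyme markers with a probe set were above the filter. By whole-transcriptome correlation the arrays fell into 3 clusters that crossed the groups. The first replicates of PBS and of both antibodies formed cluster 1, and the second replicates of cyclopamine and of both antibodies formed cluster 2. PBS replicate 2 and cyclopamine replicate 1 made up cluster 3. Cyclopamine replicate 1 also stood apart in RNA measures, with a Gapdh 3′ to 5′ signal ratio of 0.886 against 0.673 to 0.764 on the other 7 arrays.

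Promoters are shown for 4 genes whose values the comparisons turn on or that are standard readouts of the pathway: Hk2, Slc2a1 and P4ha2, which were among the 4 members with an unadjusted p under 0.05 after cyclopamine, and Ldha. Sequences are those of RefSeq for GRCm38.p6, from 250 bases before to 50 after the annotated start, 5′ to 3′ in the direction of the gene. Capitals mark the core letters of the HIF binding motif, ACGTG or GCGTG, on either strand, so that a match on the other strand reads CACGT or CACGC, and overlapping matches run together. The Hk2 window is chr6:82774405-82774704 on the minus strand, the Slc2a1 window chr4:119108495-119108794 on the plus strand, the P4ha2 window chr11:54100674-54100973 on the plus strand and the first Ldha window chr7:46845554-46845853 on the plus strand.
Hk2: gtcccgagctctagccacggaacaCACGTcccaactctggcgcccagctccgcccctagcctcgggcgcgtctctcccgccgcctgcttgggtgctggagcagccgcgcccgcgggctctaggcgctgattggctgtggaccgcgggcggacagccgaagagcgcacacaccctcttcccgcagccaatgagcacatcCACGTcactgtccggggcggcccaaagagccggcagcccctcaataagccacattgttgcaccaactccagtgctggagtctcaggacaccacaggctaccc
Slc2a1: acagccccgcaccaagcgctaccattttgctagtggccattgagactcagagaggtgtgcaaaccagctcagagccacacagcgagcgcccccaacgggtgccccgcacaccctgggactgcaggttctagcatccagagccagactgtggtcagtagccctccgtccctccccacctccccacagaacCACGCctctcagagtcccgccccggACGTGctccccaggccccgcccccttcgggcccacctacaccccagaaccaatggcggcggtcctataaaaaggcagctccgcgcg
P4ha2: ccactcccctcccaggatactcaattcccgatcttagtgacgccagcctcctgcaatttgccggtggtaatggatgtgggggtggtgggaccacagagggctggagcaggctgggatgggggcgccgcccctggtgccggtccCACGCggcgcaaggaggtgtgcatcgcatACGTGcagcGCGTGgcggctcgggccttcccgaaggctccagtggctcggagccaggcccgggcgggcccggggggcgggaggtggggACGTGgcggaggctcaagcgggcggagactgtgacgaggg
Ldha: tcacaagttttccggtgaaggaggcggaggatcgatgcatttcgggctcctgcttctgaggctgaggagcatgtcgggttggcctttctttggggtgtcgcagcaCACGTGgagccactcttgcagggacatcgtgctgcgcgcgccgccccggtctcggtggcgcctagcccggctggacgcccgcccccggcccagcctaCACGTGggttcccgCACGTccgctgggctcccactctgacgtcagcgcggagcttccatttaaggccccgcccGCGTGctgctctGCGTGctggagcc

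The Hk2 window held 2 matches, the Slc2a1 window 2, the P4ha2 window 4 and the Ldha window 7, with each strand's match counted. RefSeq windows were found for 32 of the 35 genes, several of which had more than 1 annotated start, and 37 of their 48 windows (77.1%) held at least 1 match. Among all 32851 windows of that length 43.8% held one. By gene, 29 of 32 had a match in some window, against 46.7% of the 27025 genes in the table. The member windows were also richer in CG pairs, with a median of 20.5 a window against 7 over all windows, and the part of base composition in the share of matches was not tested. A match describes letters in the window and no bound factor.

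Over all 31 genes, signals after cyclopamine tended to lie above those after PBS, by amounts that passed the adjusted threshold for no single gene. The median log2 difference, cyclopamine minus PBS, was 0.26, against 0.02 over all 13008 genes, and 27 of 31 genes were higher, against 53.1% of all genes. Centring each array on its median raised the member median to 0.39 and the median of all genes to 0.15, a shift of 0.13, and with the array clusters as a block the member median was 0.16. In 20 genes both cyclopamine arrays lay above both PBS arrays (background 17.8%), and in Hk1 alone both lay below (background 14.4%). No gene passed the threshold: limma with Benjamini-Hochberg adjustment called 0 of 31 members and 0% of all genes at an adjusted p under 0.05. In 5E1 minus 40-1a the target Ptch1 did not pass it either, at -2.31 (limma unadjusted p 7.4e-05, adjusted p 0.969), nor did Gli1 at -2.22. A count of 0 called thus does not show that a gene was unchanged. At an unadjusted p under 0.05 there were 4 members, Hk2, Slc2a1, P4ha2 and Slc2a3, against 1.58% of all genes, and the smallest adjusted p of a member in limma was 0.983. With 2 arrays against 2, an exact two-sided permutation test of a single gene cannot go below 0.333.

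The antibody comparison sets 5E1 against its isotype control. The median log2 difference, 5E1 minus 40-1a, was 0.14, against -0.01 over all genes, and 25 of 31 members were higher, against 46.7% of all genes. Both 5E1 arrays lay above both 40-1a arrays for Slc2a1, Kdm3a and Aldoa (background 8.66%), and below them for Hk2 and Eno2 (background 10.8%). For Aldoa the margin was narrow, at 10323 and 10417.5 against 10289 and 10121, a log2 difference of 0.02, and its other probe sets overlapped. In limma 0 members and 0% of all genes passed the adjusted threshold, and 0 members had an unadjusted p under 0.05, against 1.22% of all genes. Without 5E1 replicate 2 the median was -0.01. In either direction 5 members were without overlap, against 19.4% of all genes. With 1 array fewer to overlap this was 17 without 5E1 replicate 2 (59.0% of all genes), 24 without 5E1 replicate 1 (61.8%), 10 without 40-1a replicate 1 (57.5%) and 21 without 40-1a replicate 2 (60.6%).

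The 2 control groups were also compared, since the antibody control and PBS differ in what was injected. The median log2 difference, 40-1a minus PBS, was 0.06, against -0.00 over all genes, and 18 of 31 members were higher, against 49.3% of all genes. With each array centred on its median the member median was -0.02. Both 40-1a arrays lay above both PBS arrays for Slc2a1, Hk2, Ldha, Pgk1 and Egln3 (background 9.71%) and below them for Hk1 (background 10.8%). In limma 0 members and 0% of all genes passed, and 0 members had an unadjusted p under 0.05, against 0.677% of all genes. Without PBS replicate 1 the median was -0.07. In either direction 6 members were without overlap, against 20.5% of all genes. With 1 array left out this was 18 without PBS replicate 1 (53.0% of all genes), 19 without PBS replicate 2 (58.8%), 18 without 40-1a replicate 1 (68.1%) and 19 without 40-1a replicate 2 (61.1%). This comparison shares the PBS arrays with the cyclopamine comparison and the 40-1a arrays with the 5E1 comparison, so its values stand beside theirs and add no separate support.

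The antibody effect minus the cyclopamine effect tests whether the members differed between the antibody and the cyclopamine comparison. It sets a treatment with low Ptch1 and Gli1 signals against one in which these readouts overlapped their control. Its median over the members was -0.16 on the log2 scale, against -0.04 over all genes, and 8 of 31 members had a value above 0, against 45.2% of all genes. The median was -0.03 without 5E1 replicate 1, -0.06 without PBS replicate 1 and -0.28 without 5E1 replicate 2, and -0.06 with the array clusters as a block. In limma 0 members and 0% of all genes passed the adjusted threshold. At an unadjusted p under 0.05 stood 1 member, Hk2, against 1.44% of all genes.

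**Figure D1:**
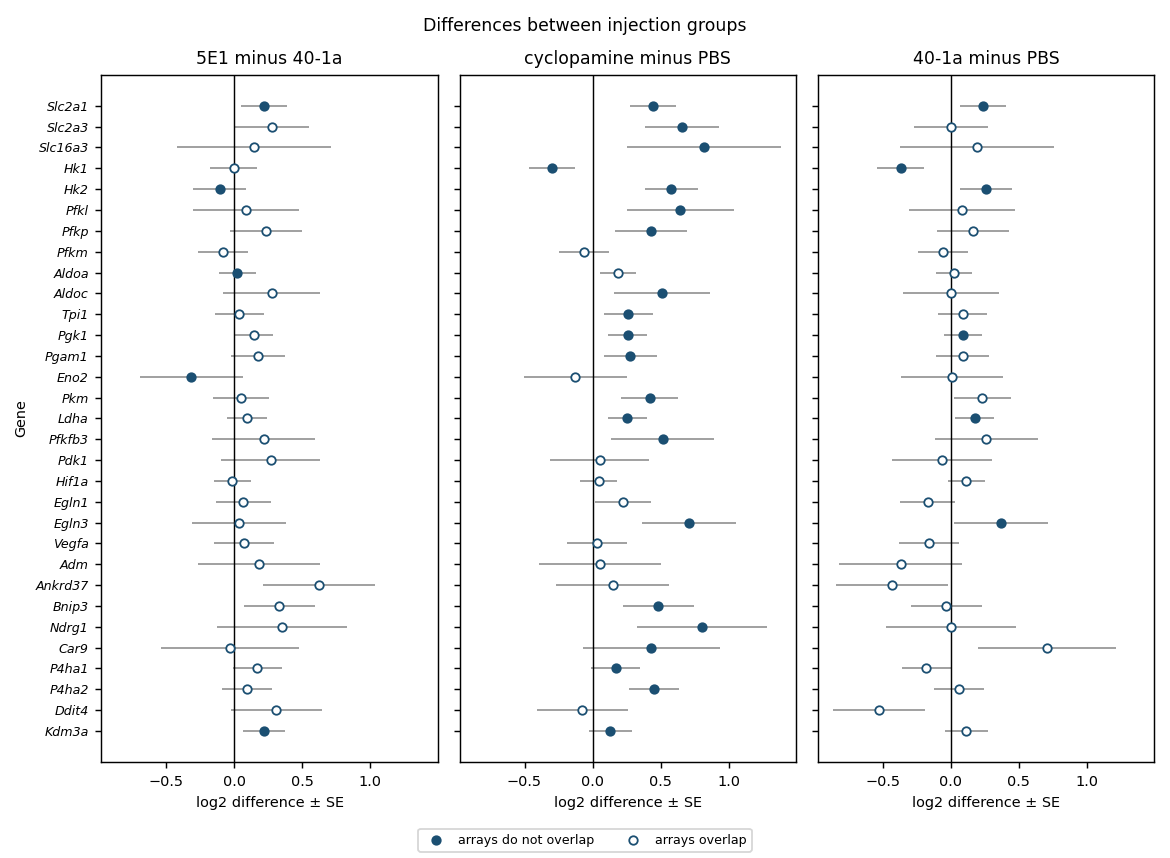
Log2 difference ± SE from limma (x axis) for each of the 31 genes (y axis, by role) in 3 comparisons of 2 arrays against 2. Filled points mark genes whose arrays did not overlap. They were 21 in the cyclopamine panel (32.2% of all genes), 5 in 5E1 minus 40-1a (19.4%) and 6 in 40-1a minus PBS (20.5%). No gene passed the adjusted threshold.

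Transport of glucose and lactate came first. Slc2a1 encodes the glucose transporter GLUT1, widely used in embryonic epithelia. Its signals were 5865 and 7563 after 5E1, 5636 and 5804 after 40-1a, 6923 and 6326 after cyclopamine, and 5349 and 4414 after PBS. The PBS arrays were the lowest of the 8 and the 40-1a arrays came next, while the cyclopamine arrays fell within the range of 5E1. The cyclopamine difference was 0.44 on the log2 scale (SE 0.17, 95% interval 0.05 to 0.84, limma unadjusted p 0.0309, Benjamini-Hochberg adjusted p 0.983), a 1.36-fold difference. The antibody difference was 0.22 (SE 0.17, interval -0.17 to 0.61) and 0.04 without 5E1 replicate 2, and 40-1a minus PBS was 0.23 (SE 0.17) and 0.10 without PBS replicate 2.

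Slc2a3 encodes GLUT3, a transporter with high affinity for glucose. It had signals of 971 and 711 after 5E1, 741 and 631 after 40-1a, 1228 and 956 after cyclopamine, and 549 and 853 after PBS. Both cyclopamine arrays lay above both PBS arrays, although PBS replicate 2 came close, and the arrays of 5E1, 40-1a and PBS overlapped. Cyclopamine minus PBS was 0.66 (SE 0.27, interval 0.03 to 1.29, limma unadjusted p 0.0434, adjusted p 0.983), and it was 0.34 without PBS replicate 1 and 0.24 when its probe sets were averaged. The 5E1 difference was 0.28 (SE 0.27) and took the other sign, -0.096, when the probe sets were averaged. That average took in probe sets under the filter. The other Slc2a3 probe set above the filter gave 0.37 for 5E1 minus 40-1a and 0.52 for cyclopamine minus PBS.

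Slc16a3 encodes MCT4, which exports lactate from glycolytic cells. Its signal ranged from 338 on PBS replicate 1 to 1122 on 5E1 replicate 2, the widest relative range of the transporters. The signals were 395 and 1122 after 5E1, 440 and 819 after 40-1a, 961 and 907 after cyclopamine, and 338 and 815 after PBS. Replicates lay far apart except after cyclopamine, where both arrays were above both PBS arrays. Against PBS, cyclopamine gave a difference of 0.82 with an SE of 0.57.

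**Figure D2:**
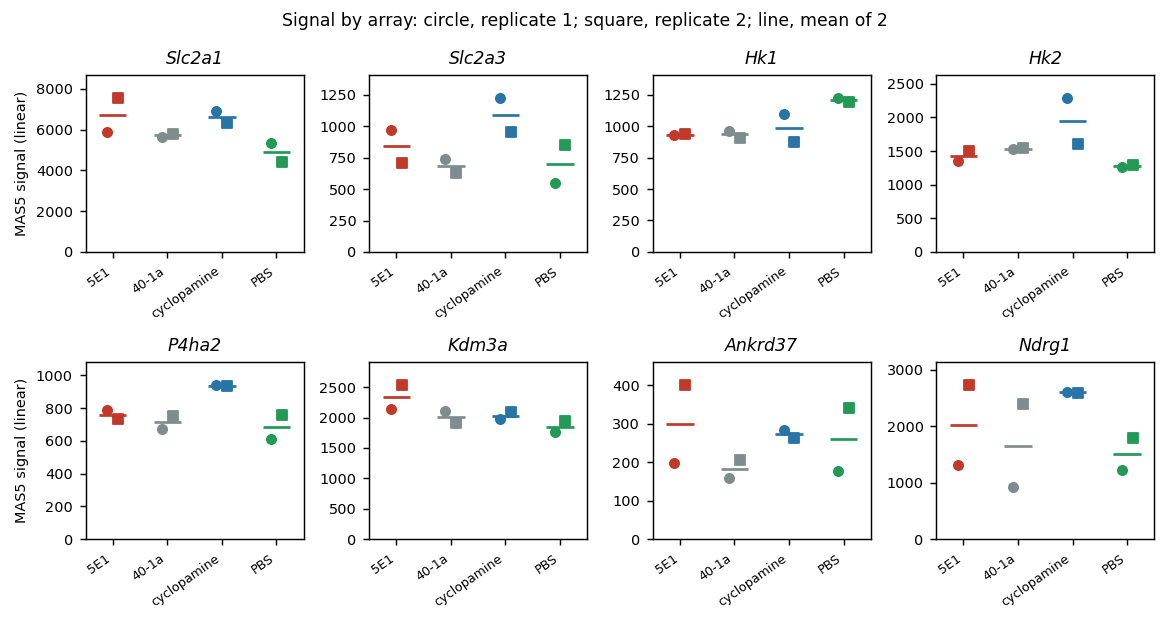
MAS5 signal on a linear axis from 0 (y axis) by injection group (x axis) for 8 genes, with a circle for replicate 1, a square for replicate 2 and a line at the mean of 2 arrays. Hk2 and P4ha2 have both cyclopamine points above all other points, Hk1 has both PBS points above all others, and in Ndrg1 and Ankrd37 the arrays of a group lie far apart.

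Hexokinases commit glucose to the cell, and the 2 measured forms had differences of opposite sign after cyclopamine. Hk2, the form induced by HIF-1 and by growth signals, had signals of 1346 and 1508 after 5E1, 1528 and 1542 after 40-1a, 2295 and 1606 after cyclopamine, and 1266 and 1297 after PBS. Both cyclopamine arrays were above the other 6 arrays and both PBS arrays below them, while both 5E1 arrays lay under both 40-1a arrays. The cyclopamine difference was 0.58 (SE 0.19, interval 0.13 to 1.03, limma unadjusted p 0.0181, adjusted p 0.983), a 1.49-fold difference, and it was 0.32 without cyclopamine replicate 1. The antibody difference was -0.11 (SE 0.19), and 40-1a minus PBS was 0.26 (SE 0.19). The antibody effect minus the cyclopamine effect was -0.69 (SE 0.27, interval -1.32 to -0.05, limma unadjusted p 0.0379), with an adjusted p that rounds to 1.

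Hk1 encodes the constitutive hexokinase of most tissues. Its signals were 928 and 935 after 5E1, 961 and 908 after 40-1a, 1098 and 877 after cyclopamine, and 1226 and 1193 after PBS. Here the PBS arrays were the highest of the 8, and the 3 other groups overlapped. The difference was -0.30 for cyclopamine minus PBS (SE 0.17, interval -0.70 to 0.10) and -0.37 for 40-1a minus PBS (SE 0.17, interval -0.77 to 0.03, limma unadjusted p 0.0639), and it was -0.00 for 5E1 minus 40-1a.

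Phosphofructokinase sets the pace of glycolysis, and its 3 subunit genes had unequal values. Pfkl, the liver form, spanned 3244 to 6918, and its cyclopamine difference was 0.65 (SE 0.39) with both cyclopamine arrays above both PBS arrays. Pfkp, the platelet form, spanned 389 to 669 with a cyclopamine difference of 0.43 (SE 0.27). Pfkm, the muscle form, spanned only 942 to 1174, and its differences were -0.06 for cyclopamine and -0.08 for 5E1 (SE 0.18 in each).

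Below phosphofructokinase, aldolase, triose phosphate isomerase, phosphoglycerate kinase and phosphoglycerate mutase carry the sugar on to phosphoglycerate. Pgk1, the phosphoglycerate kinase that yields ATP, had signals of 12784 and 15720 after 5E1, 12840 and 12851 after 40-1a, 14272 and 14609 after cyclopamine, and 11375 and 12802 after PBS. Both cyclopamine arrays and both 40-1a arrays lay above both PBS arrays, the latter by a narrow margin, and the 5E1 arrays lay on either side of the 40-1a arrays. Cyclopamine minus PBS was 0.26 (SE 0.14, interval -0.07 to 0.59), and the antibody difference of 0.14 (SE 0.14) became -0.0069 without 5E1 replicate 2. Tpi1 (0.26, SE 0.18) and Pgam1 (0.28, SE 0.20) had cyclopamine differences of like size without overlap. Aldoa, the main aldolase, differed by 0.18 (SE 0.13) with overlapping arrays, and Aldoc, the brain form, by 0.51 (SE 0.35) without overlap. Other Aldoa probe sets gave 0.40, 0.37 and 0.34 without overlap and -0.05 with overlap. Neuronal enolase, Eno2, was weak, at 97.1 to 206.7, and had differences of -0.32 after 5E1 and -0.13 after cyclopamine (SE 0.38 in each).

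At the end of the chain, Pkm makes pyruvate and Ldha reduces it to lactate. Pkm had signals of 8792 and 12591 after 5E1, 9532 and 10835 after 40-1a, 11314 and 11829 after cyclopamine, and 7531 and 9937 after PBS. Both cyclopamine arrays lay above both PBS arrays, and the arrays of 5E1, 40-1a and PBS overlapped. Its cyclopamine difference was 0.42 (SE 0.21, interval -0.06 to 0.90, limma unadjusted p 0.0787) and was 0.22 without PBS replicate 1. Ldha had signals of 13314 and 16134 after 5E1, 13288 and 14195 after 40-1a, 14419 and 14607 after cyclopamine, and 11289 and 13093 after PBS. The PBS arrays were the lowest of the 8 for Ldha. Its differences were 0.26 for cyclopamine (SE 0.14, interval -0.08 to 0.59), 0.09 for 5E1 (SE 0.14) and 0.18 for 40-1a minus PBS (SE 0.14), the last 0.07 without PBS replicate 1.

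Gapdh, the dehydrogenase in the middle of the pathway, was read from control probe sets that lie in the 5′, middle and 3′ parts of the transcript. In the middle part its signals were 23396 and 23045 after 5E1, 26476 and 23845 after 40-1a, 19771 and 25394 after cyclopamine, and 20922 and 21283 after PBS. The cyclopamine arrays lay on either side of all the others but 40-1a replicate 1, and the 40-1a and 5E1 arrays lay above those of PBS. The 3′ part gave 17871 to 22507 and the 5′ part 20678 to 33467, and in the 5′ part cyclopamine replicate 1 was again the lowest array. These probe sets were not in the fit and have no test.

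Regulators of flux gave values with wide errors. Pfkfb3 makes the activator of phosphofructokinase, ranged from 180.4 to 371.7 and had a cyclopamine difference of 0.52 (SE 0.38). Pdk1, the kinase that keeps pyruvate out of the mitochondrion, ranged from 1756 to 4053, with both extremes on the cyclopamine arrays, and its cyclopamine difference was 0.05 (SE 0.37). Another Pdk1 probe set read 1213 and 1230 after cyclopamine against 892 and 1018.5 after PBS, a difference of 0.35 without overlap. The remaining ones gave 0.18 and 0.34 with overlap.

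Oxygen sensing was measured through 3 genes. Hif1a, the oxygen-regulated subunit of HIF-1, is controlled chiefly through protein stability. Its signals were 8291 and 7475 after 5E1, 8427 and 7503 after 40-1a, 7229 and 7933 after cyclopamine, and 7555 and 7140 after PBS. The groups overlapped throughout, and the difference was 0.04 for cyclopamine (SE 0.13, interval -0.27 to 0.36) and -0.01 for 5E1 (SE 0.13, interval -0.33 to 0.30). The prolyl hydroxylase gene Egln1, encoding PHD2, ranged from 1537 to 2388, with differences of 0.22 for cyclopamine and 0.07 for 5E1 (SE 0.20 in each).

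Egln3 encodes PHD3, a hydroxylase that is itself a HIF target. It had signals of 668 and 1495 after 5E1, 856 and 1110 after 40-1a, 1227 and 1252 after cyclopamine, and 703 and 807 after PBS. Both cyclopamine and both 40-1a arrays lay above the PBS arrays, and the 5E1 arrays spanned the whole range. Against PBS, cyclopamine gave a difference of 0.71 (SE 0.35, interval -0.09 to 1.51, limma unadjusted p 0.0747), and with the array clusters as a block it was 0.38.

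Among the secreted and vascular targets, Vegfa, the main growth factor of blood vessels, differed by 1.45-fold between its extreme arrays. Its signals were 778 and 977 after 5E1, 731 and 939 after 40-1a, 928 and 968 after cyclopamine, and 811 and 1063 after PBS. All groups overlapped, and the difference was 0.03 for cyclopamine (SE 0.22, interval -0.48 to 0.54) and 0.07 for 5E1 (SE 0.22, interval -0.44 to 0.58). Adm, the vasodilator peptide adrenomedullin, was near the filter at 55.9 to 128, with differences of 0.05 for cyclopamine and 0.18 for 5E1 (SE 0.45 in each).

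The remaining targets act inside the cell. Bnip3, a mediator of mitophagy, had signals of 2414 and 3921 after 5E1, 2334 and 2556 after 40-1a, 4046 and 3024 after cyclopamine, and 2201 and 2841 after PBS. Both cyclopamine arrays lay above both PBS arrays, whereas one 5E1 array was within the 40-1a range. Its differences were 0.48 for cyclopamine (SE 0.26) and 0.33 for 5E1 (SE 0.26), and the second became -0.017 without 5E1 replicate 2. Ndrg1, a stress and differentiation gene, had signals of 1310 and 2729 after 5E1, 921 and 2385 after 40-1a, 2599 and 2595 after cyclopamine, and 1231 and 1791 after PBS. Within both antibody groups replicate 2 was far above replicate 1, and the cyclopamine arrays lay above the PBS arrays. The differences were 0.80 for cyclopamine (SE 0.48) and 0.35 for 5E1 (SE 0.48).

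Ankrd37, a small ankyrin repeat gene widely used as a HIF readout, had the smallest unadjusted p among the 31 members in the antibody comparison. Its signals were 199.2 and 401.3 after 5E1, 159 and 206 after 40-1a, 285 and 264 after cyclopamine, and 178 and 342 after PBS. The 5E1 and 40-1a arrays overlapped, and among these 4 only 5E1 replicate 2 was high. The 5E1 difference was 0.62 (SE 0.41, interval -0.33 to 1.58, limma unadjusted p 0.1715), and it was 0.13 without that array. The cyclopamine difference was 0.15 (SE 0.41).

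Enzymes on chromatin and collagen followed. Kdm3a, a histone demethylase that HIF-1 induces, had signals of 2142 and 2535 after 5E1, 2102 and 1911 after 40-1a, 1974 and 2083 after cyclopamine, and 1759 and 1946 after PBS. The 5E1 arrays were the highest of the 8. The difference from 40-1a was 0.22 (SE 0.16, interval -0.14 to 0.58, limma unadjusted p 0.202) and was 0.10 without 5E1 replicate 2. P4ha2, a collagen prolyl hydroxylase subunit, had signals of 787 and 733 after 5E1, 670 and 754 after 40-1a, 941 and 932 after cyclopamine, and 611 and 759 after PBS. The cyclopamine arrays stood above all 6 others and agreed closely, and the other groups overlapped. Cyclopamine minus PBS was 0.45 (SE 0.18, interval 0.03 to 0.88, limma unadjusted p 0.0387, adjusted p 0.983) and was 0.30 without PBS replicate 1. Its partner P4ha1 ranged from 976 to 1382, with both cyclopamine arrays the highest but a difference of 0.17 (SE 0.18).

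A pair of members stood out in the comparison of the controls through single arrays. Ddit4, an inhibitor of mTORC1 induced by stress, had signals of 3949 and 2798 after 5E1, 3777 and 1901 after 40-1a, 3079 and 4384 after cyclopamine, and 3640 and 4111 after PBS. It was low on 40-1a replicate 2, and the difference of -0.53 from PBS (SE 0.34) was -0.03 without that array. Car9, the carbonic anhydrase of hypoxic cell surfaces, was weak, with signals of 139.8 and 105.5 after 5E1, 220 and 68.7 after 40-1a, 99.6 and 103.1 after cyclopamine, and 86.2 and 61.2 after PBS. It was high on 40-1a replicate 1, and the difference of 0.71 from PBS (SE 0.51) was -0.074 without that array.

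**Figure D3:**
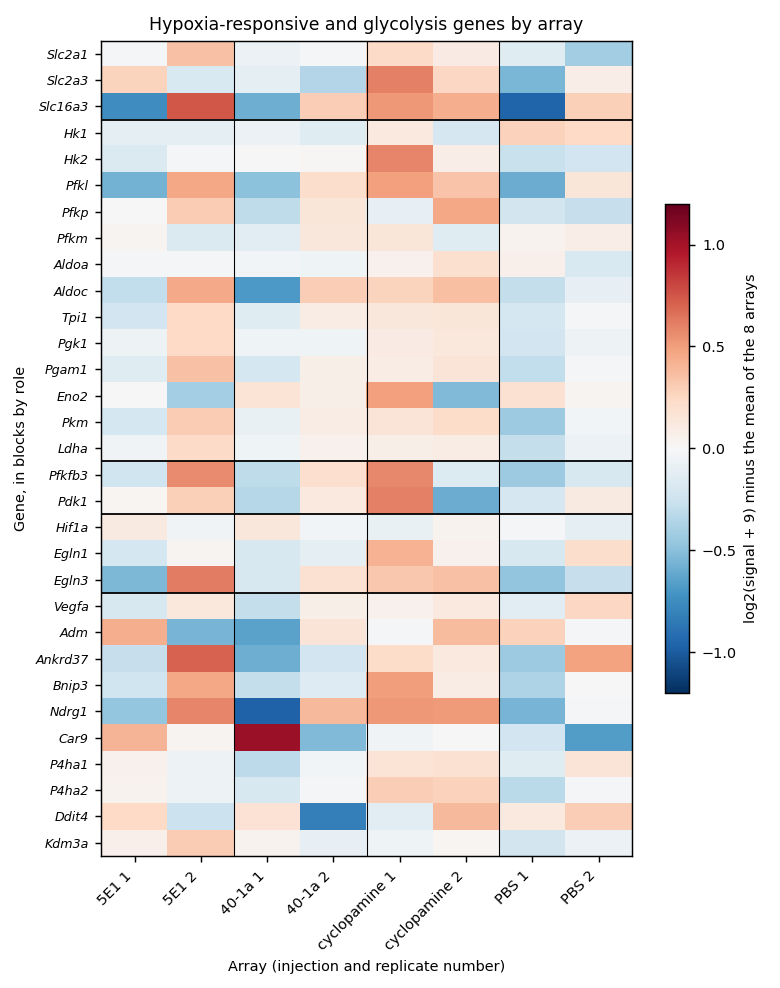
Log2(signal + 9) minus the mean of the 8 arrays (colour, red above and blue below) for the 31 genes (rows, in blocks by role) on each array (columns, by injection and replicate number). Replicate 2 of 5E1 and both cyclopamine arrays are mostly red and replicate 1 of PBS is mostly blue, with Car9 on 40-1a replicate 1 and Ddit4 on 40-1a replicate 2 standing apart.

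The arrays of one group also differed among themselves, least so after cyclopamine in the median over the 31 genes. As the median over the 31 genes of the log2 deviation from each gene's mean, 5E1 replicates 1 and 2 stood at -0.06 and 0.24, 40-1a at -0.19 and 0.05, cyclopamine at 0.17 and 0.13, and PBS at -0.23 and -0.02. Only the cyclopamine arrays lay together on the high side. In replicate 2 of both antibody groups 19 members were higher than in replicate 1 (background 36.4%), and 5 were lower in both (background 38.4%). By more than 0.5 on the log2 scale it was 5 members (background 7.91%): Slc16a3, Pfkl, Aldoc, Pfkfb3 and Ndrg1. The median of replicate 2 minus replicate 1 was 0.28 after 5E1 and 0.18 after 40-1a, against -0.00 and -0.02 over all genes.

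Arrays of the same cluster were then set against each other. Within cluster 1, 5E1 minus 40-1a had a median of 0.05 with 19 of 31 members higher (background 48.9%), and within cluster 2 a median of 0.17 with 24 of 31 higher (background 47.4%). Within cluster 3, cyclopamine replicate 1 minus PBS replicate 2 had a median of 0.20 with 27 of 31 higher (background 56.3%), against 0.05 over all genes. In that pair Hk2 differed by 0.82, Slc2a1 by 0.65, Slc2a3 by 0.52 and P4ha2 by 0.31. Each of these is a difference between single arrays and has no test.

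Tissue markers varied with the same arrays. The summed signal of 13 dental epithelium markers was 75052 and 119553 after 5E1, 73624 and 114231 after 40-1a, 87100 and 113543 after cyclopamine, and 70265 and 81608.5 after PBS. It was thus higher in replicate 2 of both antibody groups and on both cyclopamine arrays than on both PBS arrays. In the cyclopamine comparison 12 of the 13 markers were higher, with a median log2 difference of 0.44. The 9 markers of suprabasal oral epithelium were all higher, with a median of 0.48, and so were all 15 of skeletal muscle, with a median of 1.12. The summed signals of these 2 lists also took in Ivl and Neb, which lay under the filter. They were 25427 and 60314 against 28065 and 23713, and 4466 and 18581 against 6901 and 3405, so both overlapped between cyclopamine and PBS.

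Mesenchyme and endothelium had differences of the other sign. Of 15 dental mesenchyme markers 1 was higher after cyclopamine, with a median of -0.37, and their summed signal was 101211 and 69595 against 114046 and 102052 after PBS. Of 12 endothelial markers 2 were higher, with a median of -0.45, and the sum was 5657 and 4258 against 7029 and 5816. In the antibody comparison the medians were 0.04 for dental epithelium, -0.02 for suprabasal epithelium, -0.23 for mesenchyme, 0.05 for muscle and -0.04 for endothelium. For 40-1a minus PBS they were 0.21, 0.25, -0.49, 0.22 and -0.40 in the same order. Within cluster 3 the cyclopamine difference of the dental epithelium markers had a median of 0.06 and that of the muscle markers 0.35, beside 0.20 for the members.

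Markers of the other tissues had medians after cyclopamine of -0.29 for red blood cells, -0.22 for macrophages and leukocytes, -0.04 for cartilage and bone, and -0.22 for nerve and glia. No marker list was at 0 on any array, and the defining markers under the filter were Ivl, Neb, Hba-a1, Hbb-bh1, Epb42, Rhag, Matn1 and Elavl4. In whole tooth germs fewer cells of a type and less RNA per cell cannot be told apart. The part of tissue composition in the member differences was not tested.

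**Figure D4:**
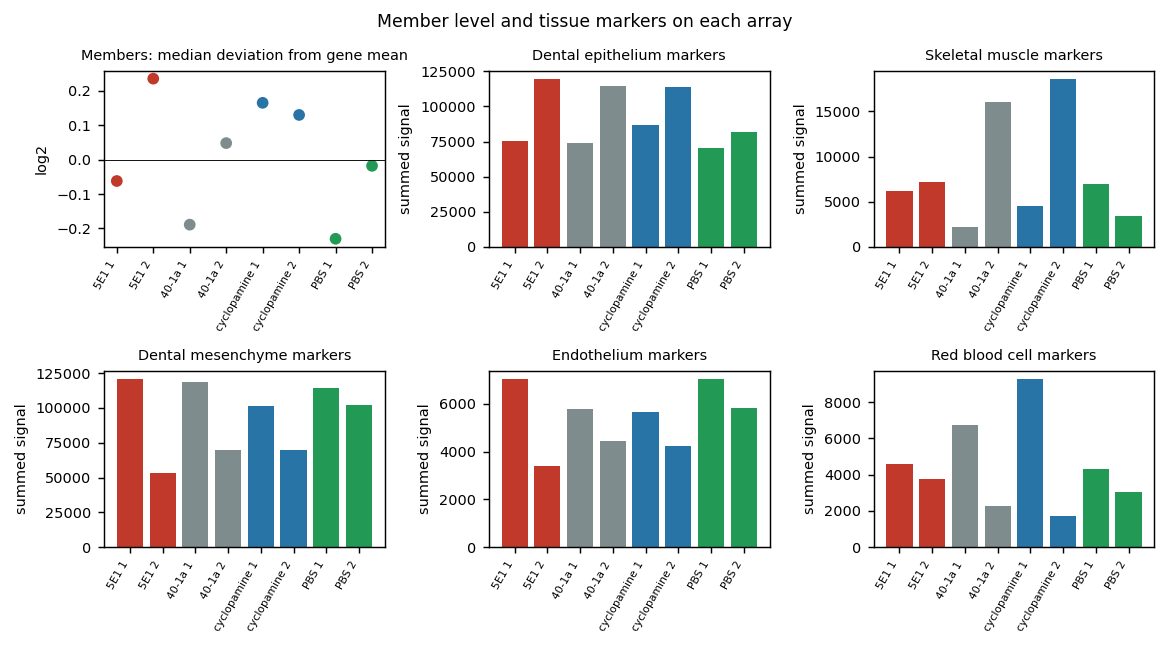
The first panel plots, for each array, the median over the 31 genes of the log2 deviation from each gene's mean, and the others plot summed MAS5 signals of 5 marker lists on linear axes from 0. Dental epithelium sums are higher in replicate 2 of 5E1 and 40-1a than in replicate 1, at 119553 against 75052 and 114231 against 73624, and mesenchyme sums run the other way.

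Different probe sets of a gene gave a further check. Of the 66 probe sets 60 lay above the filter, and limma called 0 of them in each comparison. In the cyclopamine comparison 49 of 60 were higher, with a median of 0.27. In 34 the arrays did not overlap on the high side (background 14.7%) and in 2 on the low side (background 17.7%). In the antibody comparison 48 were higher, with a median of 0.14, and 6 were without overlap on the high side (background 9.35%) and 2 on the low side (background 11.2%). For 40-1a minus PBS 40 were higher, with a median of 0.08, and the counts without overlap were 7 (background 10.4%) and 3 (background 10.7%). Of the 16 genes with several probe sets tested, 13 had the same sign in all of them in the antibody comparison, 10 in the cyclopamine comparison and 13 in the comparison of controls.

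The disagreement after cyclopamine lay partly in single probe sets on cyclopamine replicate 1. On that array 7.43% of 23594 probe sets were the lowest of the 8 by more than 0.5 on the log2 scale, against 0.454% to 1.67% on the other arrays, and 4 of the 60 member probe sets were among them. For Hif1a one probe set read 162 there and 978 to 1235 on the other arrays, while the probe set used for the gene read 7229. For P4ha1 one read 300 against 733 to 965, for Vegfa 179 against 316 to 508, and for Pfkp 94.3 against 180 to 281. In each case another probe set of the same gene showed no such drop. Apart from these, 1 member probe set, that of Ddit4, was the lowest by that margin on 40-1a replicate 2 (background 0.712%).

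**Figure D5:**
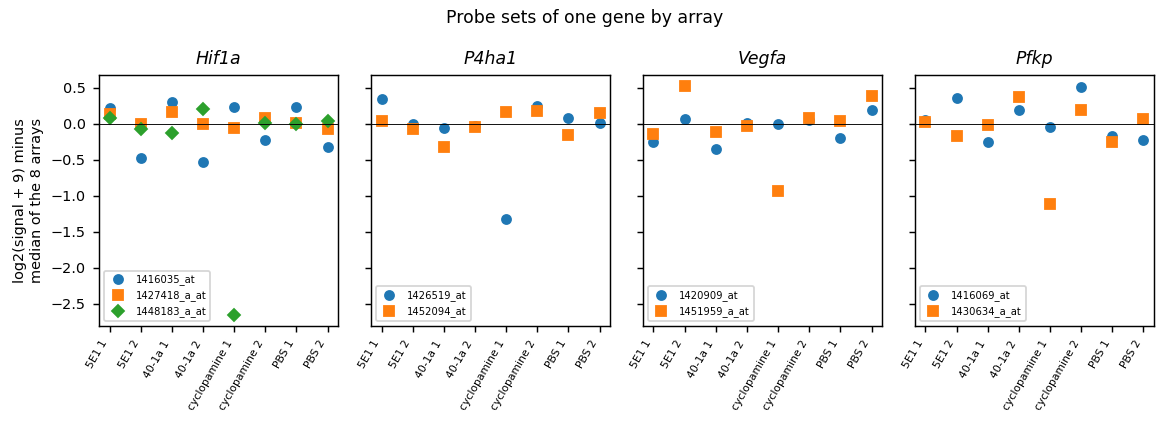
Log2(signal + 9) minus the median of the 8 arrays (y axis) on each array (x axis) for the tested probe sets of Hif1a, P4ha1, Vegfa and Pfkp, 1 colour and symbol a probe set. On cyclopamine replicate 1 a single probe set of each gene lies far below its other arrays, where the Hif1a probe set reads 162 against 978 to 1235, and the others do not.

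Genes of the same pathways outside the 35 were counted from lists, beside 53.1% of all genes higher after cyclopamine and 46.7% after 5E1. Of 31 further glycolysis and pyruvate genes, 18 were higher after cyclopamine (median 0.03) and 15 after 5E1 (median -0.01). Both cyclopamine arrays lay above both PBS arrays for 6 of them (background 17.8%) and below for 5 (background 14.4%). The muscle enolase gene Eno3, also counted among the skeletal muscle markers, differed by -0.34 after 5E1 (SE 0.21). Its difference from 40-1a was -0.03 within cluster 1 and -0.64 within cluster 2. After 5E1 the lactate and pyruvate transporter gene Slc16a1 differed by 0.26 (SE 0.17) and the fructose bisphosphatase Tigar by -0.35 (SE 0.25). Of 45 further hypoxia targets, 25 were higher after cyclopamine, with a median of 0.05, and 24 after 5E1, with a median of 0.04. For 14 of them both cyclopamine arrays lay above both PBS arrays (background 17.8%), and for 7 below (background 14.4%). Here Wsb1 differed by 0.40 after 5E1 (SE 0.18), the lipid droplet gene Plin2 by -0.32 (SE 0.16) and the HIF coactivator antagonist Cited2 by -0.27 (SE 0.15).

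Of 17 further oxygen sensing genes, 9 were higher after cyclopamine and 9 after 5E1, with medians of 0.03 and 0.04. Hif1an, the asparaginyl hydroxylase FIH, differed by -0.43 after 5E1 (SE 0.24), with both 5E1 arrays below both 40-1a arrays. Of 31 genes of the citric acid cycle and respiratory chain 25 were higher after cyclopamine (background 53.1%), with a median of 0.09. After 5E1 13 were higher (background 46.7%), with a median of -0.04. Both cyclopamine arrays lay above both PBS arrays for 11 of them (background 17.8%) and below for 2 (background 14.4%). The comparison of 40-1a with the same PBS arrays gave 26 of 31 higher (background 49.3%), with a median of 0.06. There both 40-1a arrays lay above both PBS arrays for 10 of them (background 9.71%) and below for 0 (background 10.8%). Of 11 genes of the pentose phosphate path and glutamine use, 8 were higher after cyclopamine and 5 after 5E1, with medians of 0.10 and -0.01. In limma 0 genes of these 5 lists passed the adjusted threshold in any of the 3 comparisons.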

How the data were processed

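RNA of 8 samples was measured on Affymetrix mouse arrays, 1 array each, from 5 µg of total RNA labelled as cRNA. The authors deposited 1 linear intensity per probe set, summarised by MAS5 according to the submitters' processing notes. Its version and scaling target were not given in the sources used here. MAS5 scales each array by a single factor, so no further scaling was applied. Probe sets were named from the platform annotation: 34945 had 1 gene, 932 several and 9160 none, and 64 were controls.

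Per gene the probe set of highest mean log2(signal + 9) was kept, where 9 is about the 10th percentile of all signals, and genes below the 40th percentile of non-control probe sets were left out. Adding 9 understates changes of weak genes. Fits used limma 3.58.1 in R 4.3.3 (lmFit, contrasts.fit, eBayes with trend) with 4 group means over 8 arrays, 4 residual degrees of freedom and Benjamini-Hochberg adjustment over 13008 genes at 0.05. The number of arrays limits the precision. The script was tested on simulated data.

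The genes described array by array were the 6 with the smallest unadjusted p in each of 3 comparisons, plus Hif1a, Vegfa, Slc2a1, Ldha, Pgk1, Bnip3, Gapdh and Ndrg1. They also include Slc16a3, added after its values were seen. Of each list up to 3 genes were named, those with the smallest p in 5E1 minus 40-1a. Members and lists were chosen with earlier results of these data known. The counts by array cluster and of single low probe sets were chosen after the values were seen. Alternatives were other normalizations, pseudocounts, filters, probe set rules, blocks, fits of the compared groups alone, and each array left out.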

Additional observations from a re-analysis of the deposited data

Results flagged for a closer look

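Hk2 was picked out because its arrays lay on opposite sides of their controls in the antibody and the cyclopamine comparison: both 5E1 arrays lay below both 40-1a arrays, and both cyclopamine arrays lay above both PBS arrays. The antibody effect minus the cyclopamine effect was -0.69 on the log2 scale (SE 0.27). That difference was tested in limma and did not pass after Benjamini-Hochberg adjustment over all genes, with an unadjusted p of 0.0379. The Hedgehog targets Ptch1 and Gli1 overlapped between cyclopamine and PBS, with log2 differences of -0.27 and 0.08. The antibody difference of Hk2 itself was -0.11 with an SE of 0.19.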

How the results depend on the processing

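In limma 0 members were called in the 4 comparisons under each alternative run, and the smallest adjusted p of a member was 0.702, after cyclopamine. The median member difference kept its sign under each alternative for cyclopamine minus PBS, from 0.16 with the array cluster block to 0.39 with median centring, and for the antibody effect minus the cyclopamine effect, from -0.28 to -0.03. For 5E1 minus 40-1a it ran from -0.01 to 0.27, and for 40-1a minus PBS from -0.07 to 0.15. Median centring left 2 members without overlap in 5E1 minus 40-1a (18.2% of all genes) and 2 in 40-1a minus PBS (22.6%). With 1 array left out these counts ran from 5 to 24 (19.4% to 61.8% of all genes) and from 6 to 19 (20.5% to 68.1%), since fewer arrays can overlap.

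Of 339 alternatives over the 18 gene values described, 335 kept the sign and 4 did not, and none passed the threshold. The 4 were Slc2a3 in 5E1 minus 40-1a at -0.096 with probe sets averaged, and 3 with an array left out. Leaving out arrays gave -0.017 to 0.68 for Bnip3 and -0.0069 to 0.29 for Pgk1 in 5E1 minus 40-1a, and -0.074 to 1.49 for Car9 in 40-1a minus PBS. The labels do not say that replicate numbers pair the samples, and the main fit took no account of them. The correlation of deviations between same-numbered arrays was 0.32 to 0.59 in 5 pairs of groups, highest for 5E1 with 40-1a. Between cyclopamine and PBS it was 0.0016. The replicate block left the medians at 0.14, 0.26 and 0.06, called 0 members in limma, and called 1 of all genes in 5E1 minus 40-1a against 0 without it. The array cluster block, whose clusters come from the same values, called 3 of all genes in 5E1 minus 40-1a and 3 in the antibody effect minus the cyclopamine effect. Car9 had no value under the stricter filter, and Slc2a3 had none with probe sets chosen by suffix. The fit of the compared groups alone gave none for the antibody effect minus the cyclopamine effect. Signal near background limits Adm, Car9 and Eno2.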

Other observations

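Genes of mitochondrial metabolism were picked after their values were seen, from those with the smallest unadjusted p after cyclopamine in their lists. Ndufv1, a subunit of respiratory complex I, had signals of 5144 and 4818 after cyclopamine against 3585 and 2706 after PBS, a log2 difference of 0.68 (SE 0.17), which did not pass in limma (adjusted p 0.983). Cox4i1, a subunit of cytochrome oxidase, had 18840 and 18424 against 14304 and 15079, a difference of 0.34 (SE 0.13). Got2, the mitochondrial aspartate transaminase, came from the list of the pentose phosphate path and glutamine use and differed by 0.45 (SE 0.18). All 3 had both cyclopamine arrays above both PBS arrays (background 17.8%), which their choice by value favours. For Ndufv1 and Cox4i1 both 40-1a arrays also lay above both PBS arrays, with differences from PBS of 0.42 (SE 0.17) and 0.20 (SE 0.13). In the list of the citric acid cycle and respiratory chain, Sdha and Ppargc1a lay lower on both cyclopamine arrays than on both PBS arrays. Their differences were -0.08 (SE 0.13) and -0.39 (SE 0.27). Of the hypoxia targets outside the members, Narf lay lower on both cyclopamine arrays, at 953 and 1008 against 1247 and 1402. The Narf difference was -0.43 (SE 0.15).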
